A study of Mus musculus with 12 samples.

Results

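Leucine, isoleucine and valine, the branched-chain amino acids, are burned in heart muscle by a shared mitochondrial pathway, and 10 genes of this pathway were followed here in mouse hearts under pressure overload. They were taken from the 18079 genes of the deposited table by gene symbol, and the list was drawn up with earlier results of these data known. They are Bcat2, Bckdha, Bckdhb, Dbt, Bckdk, Ivd, Mccc1, Pcca, Pccb and Aldh6a1, and 10 of the 10 passed the filter on low values that left 11664 genes for testing. A gene passed when its FPKM (reads per length of transcript, scaled to the size of the library) reached 1 or more in 3 or more libraries.

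RNA came from left ventricular muscle of 12 mice, given as C57BL/6 in the labels and C57BL/6J in the study's methods, 3 in each of 4 groups. The labels put the age at 8 weeks at surgery and 12 weeks at harvest, 4 weeks later, while the study's methods allow for ages up to 10 weeks at surgery. The DMSO+Sham and Hispidulin+Sham mice had a sham operation, and the DMSO+AB and Hispidulin+AB mice had aortic banding (AB), which narrows the aorta so that the left ventricle pumps against a raised pressure. Hispidulin, a plant flavone, was injected into the abdomen at 20 mg/kg/day from 1 day before surgery until harvest, and the other mice were injected with DMSO, so that no group was free of injections. Each library is 1 mouse.

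In the pathway, Bcat2 encodes the mitochondrial transaminase that removes the amino group, and the resulting keto acids enter the branched-chain keto acid dehydrogenase complex, the committed step. Bckdha and Bckdhb encode the subunits of its E1 component, Dbt encodes the E2 core, and the complex is switched off by the kinase Bckdk and switched on by the phosphatase Ppm1k. Beyond the complex the 3 amino acids part: Ivd and Mccc1 act on the leucine branch, Aldh6a1 on the valine branch, and Pcca and Pccb form the propionyl-CoA carboxylase that takes up carbon from isoleucine and valine. Hearts under overload are known for a shift away from the fuels burned by the adult heart.

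In vehicle-treated mice the breakdown genes were lower after banding. The log2 fold change between DMSO+AB and DMSO+Sham was below 0 for 10 of the 10 genes, where 55.8% of all genes tested were below 0. It ran from -0.89 for Aldh6a1 to -0.10 for Bckdk, with a median of -0.56 against -0.03 over all genes tested. Bckdhb, Ivd, Mccc1, Pcca, Pccb and Aldh6a1 fell with an adjusted p under 0.05 from limma, which makes 6 of 10 genes called, where 5.21% of all genes tested were called and 2.71% were called lower. In 9 of the 10 genes all 3 DMSO+AB mice lay below all 3 DMSO+Sham mice, a pattern seen in 10.8% of all genes tested. In hispidulin-treated mice the median difference between AB and Sham was -0.24, and 0 of the 10 genes passed, where 0% of all genes passed. Neither the difference between Hispidulin+AB and DMSO+AB nor the interaction of hispidulin and AB passed for any of the 10.

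The calls rest on few libraries. Myl7, an atrial myosin light chain, was above an FPKM of 20 in 3 libraries of labelled ventricle, with 333 in Hispidulin+Sham replicate 3, 67.5 in DMSO+AB replicate 2 and 42.3 in Hispidulin+AB replicate 3, and at most 15.03 in the other 9. With these 3 libraries left out, a choice made after seeing the data, the median change of the 10 genes between DMSO+AB and DMSO+Sham was -0.54 and 0 of 10 passed, with 20 of all genes (0.171%) called in place of 608. The smallest adjusted p among the 10 was then 0.0814, for Ivd. Leaving out DMSO+AB replicate 2 alone left 1 call among the 10 (Ivd) and 97 among all genes (0.832%). Leaving out DMSO+Sham replicate 1 left 2 (Ivd and Aldh6a1) and 91 among all genes (0.780%). With only the 6 libraries compared in the model, 0 of 10 and 11 of all genes (0.0943%) passed. All 10 changes stayed below 0 in each of these fits.

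The stretch just before the start of transcription is shown for Ivd, Mccc1, Aldh6a1 and Bckdhb, the called genes with the smallest adjusted p between DMSO+AB and DMSO+Sham. It is also shown for Bckdk, which did not pass, so that the letters they share can be seen. Pcca and Pccb, which were called too, are not shown, and their matches are given below. The 250 bases before the start come from RefSeq on build GRCm38.p6, where 9 of the 10 genes had an entry and Dbt had none, and each sequence ends at the last base before the start. Capitals mark CACCC, the core letters recognized by Krüppel-like factors such as Klf15, and CCAAT, the letters recognized by NF-Y, read on either strand, so that GGGTG and ATTGG are marked too. For genes with several starts the first entry is shown.
Ivd, chr2:118861744-118861993, plus strand: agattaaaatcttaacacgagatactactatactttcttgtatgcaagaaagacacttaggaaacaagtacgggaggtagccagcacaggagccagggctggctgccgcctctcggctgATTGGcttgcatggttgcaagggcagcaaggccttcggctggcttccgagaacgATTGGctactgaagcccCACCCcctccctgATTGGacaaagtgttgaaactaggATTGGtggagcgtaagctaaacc
Mccc1, chr3:36000679-36000928, minus strand: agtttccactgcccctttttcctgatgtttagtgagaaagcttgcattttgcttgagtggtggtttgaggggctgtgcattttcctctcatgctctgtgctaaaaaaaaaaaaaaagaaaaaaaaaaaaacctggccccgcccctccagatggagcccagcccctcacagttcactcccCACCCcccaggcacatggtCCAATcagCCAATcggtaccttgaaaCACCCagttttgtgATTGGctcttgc
Aldh6a1, chr12:84451025-84451274, minus strand: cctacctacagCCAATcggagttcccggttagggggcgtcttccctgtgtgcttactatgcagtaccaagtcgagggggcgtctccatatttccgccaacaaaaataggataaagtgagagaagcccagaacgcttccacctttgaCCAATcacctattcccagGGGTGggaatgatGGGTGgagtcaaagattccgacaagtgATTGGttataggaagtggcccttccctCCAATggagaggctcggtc
Bckdhb, chr9:83924887-83925136, plus strand: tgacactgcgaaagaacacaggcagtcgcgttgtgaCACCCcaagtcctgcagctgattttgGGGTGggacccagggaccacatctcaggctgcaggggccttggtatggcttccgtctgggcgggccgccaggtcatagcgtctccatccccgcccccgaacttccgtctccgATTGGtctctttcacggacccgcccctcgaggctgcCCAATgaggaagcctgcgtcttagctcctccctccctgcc
Bckdk, chr7:127903823-127904072, plus strand: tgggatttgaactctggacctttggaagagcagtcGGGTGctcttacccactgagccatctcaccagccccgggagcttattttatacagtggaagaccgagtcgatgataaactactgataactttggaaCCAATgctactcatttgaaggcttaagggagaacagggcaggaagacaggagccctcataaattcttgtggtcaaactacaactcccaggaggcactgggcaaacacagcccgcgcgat

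CCAAT or its reverse stood 4 times before Ivd, 3 times before Mccc1, 4 times before Aldh6a1 and 2 times before Bckdhb, against 1 time before Bckdk. Of the other called genes, Pcca held it 1 time in its first entry, the same as Bckdk, and Pccb 0 times, so its count did not separate called genes from Bckdk. Over all starts of the 9 genes, CCAAT or its reverse was present in 8 of 13 stretches. By gene it was present before 6 of the 9, Bckdk among them, and several starts of 1 gene are not independent. Over all RefSeq entries it was present in 33.8% of the 32851 stretches of the same length. CACCC or its reverse was present in 7 of 13 stretches and before 7 of the 9 genes, against 52.0% of all stretches. Neither share was tested. Both motifs can share up to 2 letters where they meet, and they did not meet in the 5 stretches shown. A further motif, AAGGTCA, the half-site read by nuclear receptors of the ERR type, was present in 0 of 13 against 4.08% of all stretches. These are matches of letters, and binding was not measured. The stretches before Bckdha and Pccb held neither CACCC nor CCAAT, although Pccb fell after banding.

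Per transcript length, the genes differed widely in level. In DMSO+Sham hearts Bckdha was highest with a mean FPKM of 223 ± 16.7 (SD, n = 3), followed by Ivd with 194 ± 7.22 and Aldh6a1 with 108 ± 20.2. Bcat2, at 80.2 ± 3.11, and Pccb, at 77.5 ± 2.202, overlapped between mice, so their order is not set. Bckdhb stood at 67.6 ± 9.21, clear of both its neighbours. Bckdk at 45.7 ± 2.32, Mccc1 at 42.5 ± 1.76 and Pcca at 41.3 ± 4.02 overlapped in turn, and Dbt was lowest at 25.6 ± 7.62. Summed over the 10 genes, the FPKM of a mouse was 850 to 953 in DMSO+Sham, 754 to 842 in Hispidulin+Sham, 547 to 673 in DMSO+AB and 652 to 724 in Hispidulin+AB. By that sum the lowest sham mouse stood above the highest banded mouse.

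**Figure D1:**
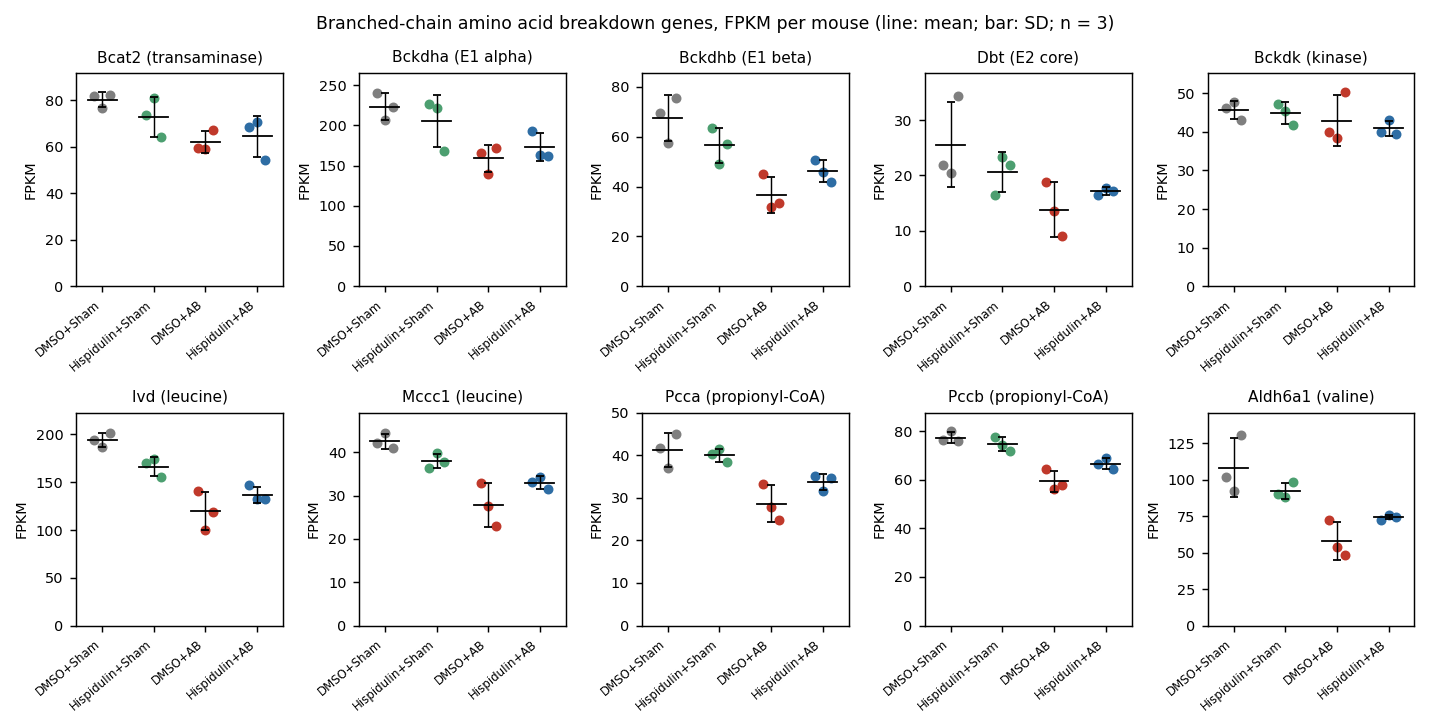
FPKM of the 10 branched-chain amino acid breakdown genes (vertical axes, each from 0) in the 4 groups (horizontal axes), with 1 point per mouse, a line at the mean and a bar of 1 SD (n = 3). In 9 panels all DMSO+AB points lie below all DMSO+Sham points, and in the Bckdk panel the groups overlap.

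At the entry to the pathway, Bcat2 had an FPKM of 81.9, 76.7 and 82.2 in the DMSO+Sham mice, 73.5, 80.8 and 64.0 in Hispidulin+Sham, 59.5, 59.1 and 67.4 in DMSO+AB, and 68.7, 70.5 and 54.3 in Hispidulin+AB. The vehicle groups were apart, while the lowest of all 12 values was in a Hispidulin+AB mouse. The log2 fold change between DMSO+AB and DMSO+Sham was -0.37 (standard error 0.12, adjusted p = 0.102), which did not pass. The cytosolic transaminase Bcat1 was between 0.06 and 0.41 in every mouse and was too low to be tested. Slc25a44, which carries branched-chain amino acids into mitochondria, differed by -0.04 (adjusted p = 0.875), and its values of 7.46 to 9.61 in DMSO+AB lay across those of DMSO+Sham, 7.93 to 9.89.

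Among the subunits of the dehydrogenase, Bckdha had an FPKM of 240.0, 207 and 223 in DMSO+Sham, 227, 222 and 168 in Hispidulin+Sham, 166, 139 and 171 in DMSO+AB, and 194, 164 and 162 in Hispidulin+AB. The vehicle groups did not overlap, and the log2 fold change of -0.49 (standard error 0.13) just missed the threshold, with an adjusted p of 0.0549. Averaged over both treatments, Bckdha fell by 0.37 on the log2 scale after AB, with an adjusted p of 0.0356.

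Bckdhb, the partner of Bckdha in the E1 component, had an FPKM of 69.4, 57.6 and 75.8 in DMSO+Sham, 63.4, 49.2 and 57.0 in Hispidulin+Sham, 45.1, 31.7 and 33.3 in DMSO+AB, and 50.7, 45.8 and 41.9 in Hispidulin+AB. Its 3 DMSO+AB values were below every sham value, and the hispidulin groups overlapped. Bckdhb fell by 0.87 on the log2 scale between DMSO+AB and DMSO+Sham (standard error 0.15, adjusted p = 0.0118), which is 45.4% on the scale of FPKM with 1 added.

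Dbt, the core of the complex, had an FPKM of 21.9, 20.5 and 34.4 in DMSO+Sham, 16.5, 23.3 and 21.9 in Hispidulin+Sham, 18.9, 13.7 and 9.01 in DMSO+AB, and 16.4, 17.8 and 17.2 in Hispidulin+AB. It was the most scattered of the 10 genes, with both the highest value, in DMSO+Sham replicate 3, and the lowest, in DMSO+AB replicate 3, standing far from the rest. The log2 fold change of -0.86 carried a standard error of 0.24 and did not pass (adjusted p = 0.0621). Dld, the E3 subunit that other mitochondrial dehydrogenases use too, was 102 in DMSO+AB replicate 3 and 169 to 209 in the other 11 mice, and its change of -0.30 did not pass (adjusted p = 0.404).

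For the kinase no change passed. Bckdk had an FPKM of 46.3, 47.7 and 43.2 in DMSO+Sham, 47.3, 45.5 and 41.7 in Hispidulin+Sham, 39.9, 38.4 and 50.4 in DMSO+AB, and 40.1, 43.1 and 39.5 in Hispidulin+AB. The lowest and the highest of the 12 values were both in DMSO+AB mice. The log2 fold change was -0.10, with a 95% interval from -0.34 to 0.14 and an adjusted p of 0.654. Without DMSO+AB replicate 3, the mouse with the highest Bckdk, it was -0.22, and it lay between -0.22 and -0.03 over the fits that each left out 1 mouse. Its opponent Ppm1k, the phosphatase, had an FPKM of 20.9, 19.8 and 22.3 in DMSO+Sham, 15.8, 18.9 and 20.3 in Hispidulin+Sham, 11.2, 9.29 and 6.35 in DMSO+AB, and 13.4, 14.9 and 11.1 in Hispidulin+AB. Every banded mouse was below every sham mouse. Ppm1k fell by 1.17 on the log2 scale between DMSO+AB and DMSO+Sham (standard error 0.17, adjusted p = 0.00647), a larger fall than in any of the 10 genes.

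The ratio of Bckdk to Ppm1k within a library was 2.22, 2.41 and 1.93 in DMSO+Sham, 3.00, 2.41 and 2.05 in Hispidulin+Sham, 3.57, 4.14 and 7.94 in DMSO+AB, and 3.00, 2.89 and 3.55 in Hispidulin+AB. The highest sham mouse and the lowest banded mice, all hispidulin-treated, overlapped, and DMSO+AB replicate 3 was far above the rest. The log2 ratio was higher after AB by 0.76, by 1.17 within DMSO mice and by 0.35 within hispidulin mice. In an exact two-sided permutation test that kept treatment fixed, with 400 arrangements and a smallest possible p of 0.005, p was 0.015, and it was 0.105 after adjustment over the 7 ratios computed, so the ratio did not pass. The adjusted p of this exact test was 0.035 without Hispidulin+Sham replicate 1 and between 0.0525 and 0.21 in the other 11 fits that each left out 1 mouse.

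The other ratios set subunits of 1 enzyme, or enzymes of neighbouring steps, against each other. Bckdk to Bckdha was higher after AB by 0.25 on the log2 scale (exact permutation p = 0.04, adjusted p = 0.14). The ratio of Bckdha to Bckdhb differed by 0.22 (adjusted p = 0.257) and that of Bckdha to Dbt by 0.21 (adjusted p = 0.513), Bcat2 to Bckdha by 0.09 (adjusted p = 0.343), and Pcca to Pccb by -0.12 (adjusted p = 0.271), all by the same exact test. Mccc1 to its partner Mccc2 differed by 0.02 (adjusted p = 0.95). That last ratio was 0.949 in DMSO+AB replicate 3 and 1.15 to 1.34 in the other mice, and without this replicate the difference was 0.10 (adjusted p = 0.035), while the adjusted p of this exact test was at least 0.91 without any other mouse. None of the 7 passed with all libraries in.

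**Figure D2:**
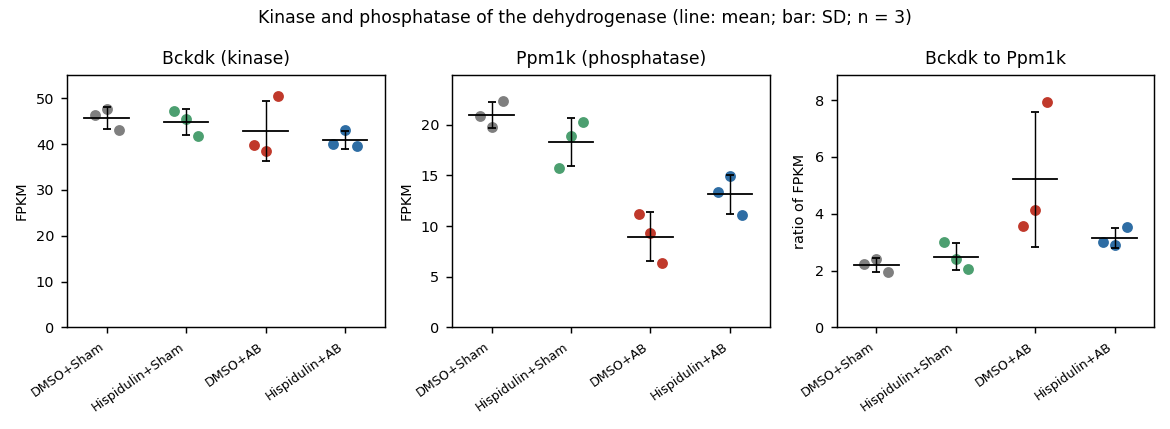
FPKM of the kinase Bckdk and of the phosphatase Ppm1k, and their ratio within each library (vertical axes, from 0), by group, with 1 point per mouse, a line at the mean and a bar of 1 SD (n = 3). Bckdk overlaps between the banded and the sham mice of each treatment, Ppm1k is lower in all 6 banded mice, and the ratio is highest, at 7.94, in 1 DMSO+AB mouse.

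On the leucine branch, Ivd, the isovaleryl-CoA dehydrogenase, had an FPKM of 194, 187 and 201 in DMSO+Sham, 170.1, 174 and 155 in Hispidulin+Sham, 140.5, 100.2 and 119 in DMSO+AB, and 147, 132 and 132 in Hispidulin+AB. All 6 banded mice were below all 6 sham mice, and the Hispidulin+Sham mice were below the DMSO+Sham mice. Ivd fell by 0.70 on the log2 scale between DMSO+AB and DMSO+Sham (standard error 0.11, adjusted p = 0.0102), the smallest adjusted p of the 10 genes. It was called in 15 of 17 alternative fits, more than any of the others.

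Mccc1, a subunit of methylcrotonyl-CoA carboxylase, had an FPKM of 42.2, 44.4 and 41.0 in DMSO+Sham, 36.4, 39.8 and 37.7 in Hispidulin+Sham, 32.9, 27.5 and 22.9 in DMSO+AB, and 33.2, 34.3 and 31.5 in Hispidulin+AB. The group means stood in the same order as for Ivd, and every banded mouse was below every sham mouse. For both genes the DMSO+AB and Hispidulin+AB mice overlapped. Mccc1 fell by 0.61 (standard error 0.12, adjusted p = 0.0164). Mccc2, the other subunit of this carboxylase, was 33.8 to 36.1 in DMSO+Sham and 21.4 to 24.5 in DMSO+AB, and fell by 0.56 (adjusted p = 0.00858). Auh, the next enzyme of the branch, fell by 0.35 (adjusted p = 0.0292).

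On the valine branch, Aldh6a1, the methylmalonate semialdehyde dehydrogenase, had an FPKM of 102, 92.1 and 131 in DMSO+Sham, 89.9, 87.7 and 98.3 in Hispidulin+Sham, 72.6, 53.5 and 48.1 in DMSO+AB, and 72.6, 75.6 and 74.4 in Hispidulin+AB. Banded mice again lay below all sham mice, and the 3 Hispidulin+AB values were close together. Aldh6a1 fell by 0.89 (standard error 0.15, adjusted p = 0.0111), which is 46.1% on the scale of FPKM with 1 added. This was the largest estimate of the 10, with Bckdhb (-0.87) and Dbt (-0.86) within its standard error, so their order is not set. Without the 3 libraries with Myl7 above 20, Dbt was lowest at -0.88. RefSeq places the protein-coding gene Bbof1 across part of Aldh6a1, and the sources used here do not say whether the counting used strand, so reads of the pair may not be told apart. Noncoding or pseudogene entries also lie across Bcat2, Bckdhb, Dbt and Mccc1, and 4 entries lie across Pcca, so the values of these genes carry the same limit.

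At the end of the isoleucine and valine branches, Pcca had an FPKM of 41.7, 37.0 and 45.1 in DMSO+Sham, 40.4, 41.4 and 38.3 in Hispidulin+Sham, 33.3, 27.8 and 24.8 in DMSO+AB, and 35.1, 31.6 and 34.7 in Hispidulin+AB. Its partner Pccb had 76.3, 80.0 and 76.1 in DMSO+Sham, 77.7, 74.2 and 72.0 in Hispidulin+Sham, 64.4, 56.1 and 57.7 in DMSO+AB, and 66.6, 69.0 and 64.4 in Hispidulin+AB. For both subunits the sham groups overlapped and all banded mice were lower. Pcca fell by 0.52 (adjusted p = 0.0271) and Pccb by 0.38 (standard error 0.08, adjusted p = 0.0265). Mcee and Mmut, the epimerase and the mutase that carry the product on to succinyl-CoA, fell by 0.37 (adjusted p = 0.0416) and 0.63 (adjusted p = 0.0335).

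**Figure D3:**
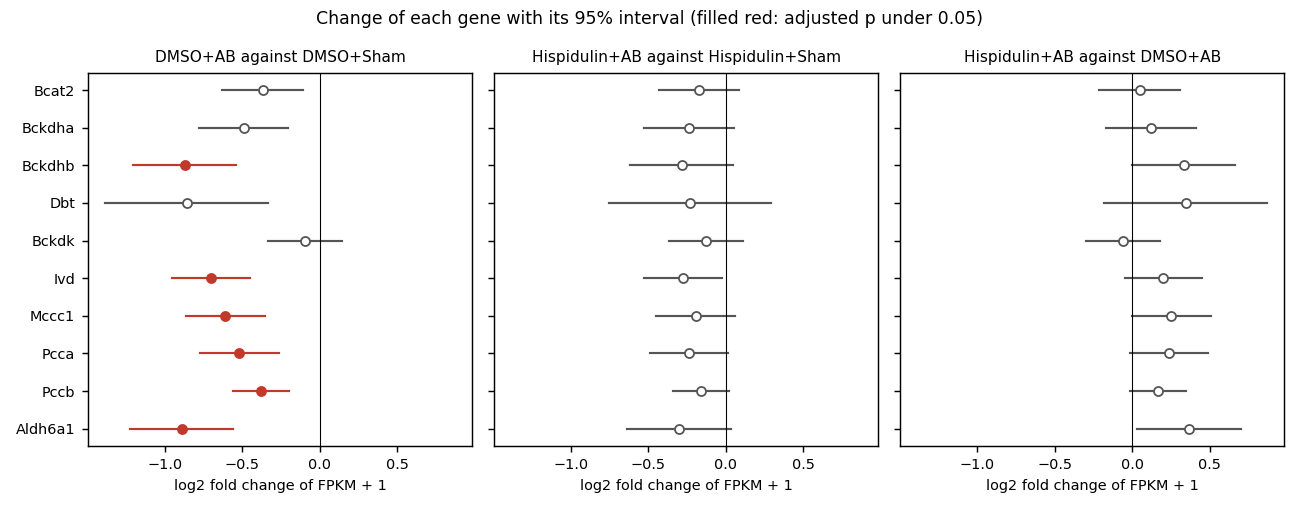
Log2 fold change of FPKM + 1 (horizontal axis) of each of the 10 genes (vertical axis) with its 95% interval, in 3 comparisons of 3 mice against 3, where filled red points have an adjusted p under 0.05 from limma. The 6 called genes are all in the left panel, where all 10 points are below 0, and the points of the right panel lie between -0.06 and 0.37.

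Averaged over both treatments, with 6 banded mice against 6 sham mice and the DMSO mice of the comparison above among them, the 10 genes had a median log2 fold change of -0.39 against -0.03 over all genes tested. The same 6 genes passed and Bckdha passed with them, which makes 7 of 10, where 7.39% of all genes tested were called and 3.87% were called lower. Ivd fell by 0.49 (adjusted p = 0.00584), Aldh6a1 by 0.60 (adjusted p = 0.00943) and Bckdhb by 0.58 (adjusted p = 0.0102). For Ivd, Mccc1, Pcca, Pccb and Aldh6a1 every banded mouse was below every sham mouse, which held for 2.8% of all genes tested. Without the 3 libraries rich in Myl7 the median was again -0.39 and 0 of 10 passed, with 74 of all genes (0.634%). Without Hispidulin+Sham replicate 2 the count was 4 of 10, with 407 of all genes (3.49%).

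Of the rest of the pathway, 25 genes were listed and 24 could be tested. The 24 had a median log2 fold change of -0.31 between DMSO+AB and DMSO+Sham. Of them 6 passed, all lower, where 5.21% of all genes tested were called and 2.71% were called lower. They were Ppm1k, Mccc2, Auh, Mcee and Mmut, given above, and Klf15, a transcription factor known to drive genes of branched-chain amino acid breakdown in heart. Klf15 had an FPKM of 60.6, 43.2 and 58.9 in DMSO+Sham, 51.1, 46.9 and 61.0 in Hispidulin+Sham, 33.1, 26.5 and 37.6 in DMSO+AB, and 40.5, 44.7 and 36.3 in Hispidulin+AB. The DMSO groups were apart and the fall was 0.72 on the log2 scale (adjusted p = 0.0278). The other 3 listed regulators did not pass, with -0.06 for Esrra (adjusted p = 0.855), -0.37 for Ppara (adjusted p = 0.254) and 0.00437 for Ppargc1a (adjusted p = 0.994). None of the 3 genes for import and the mitochondrial carrier, of the 3 of the isoleucine branch and of the other 3 of the valine branch passed in this comparison. Averaged over treatments 6 of 24 passed, all lower, where 7.39% of all genes tested were called and 3.87% were called lower. The 6 included Echs1, an enoyl-CoA hydratase also used for fatty acids, which fell by 0.25 (adjusted p = 0.0312).

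**Figure D4:**
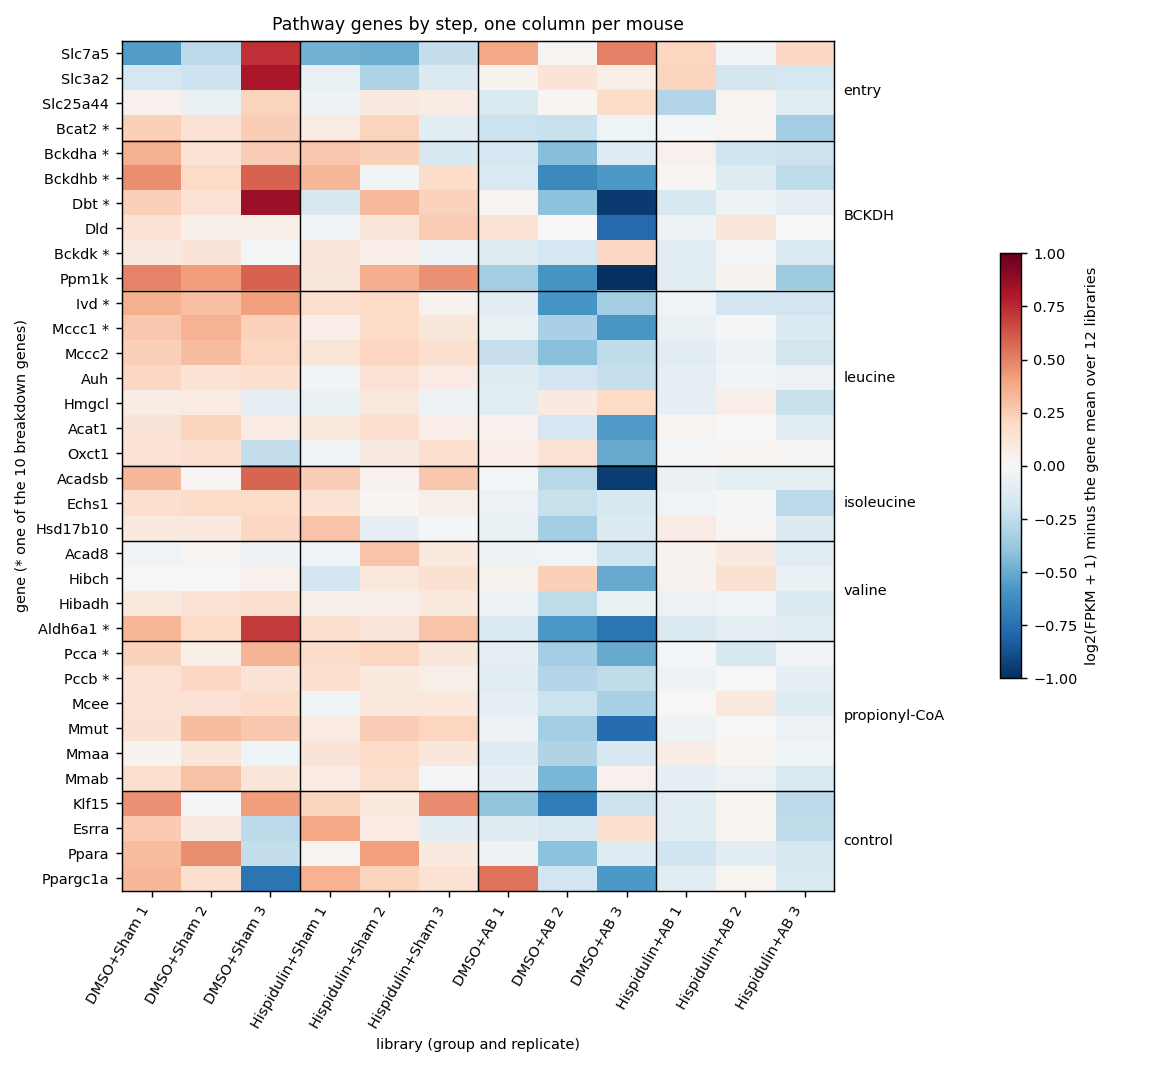
Log2(FPKM + 1) of each tested pathway gene (rows, by step, with a star on the 10 breakdown genes) minus its mean over the 12 libraries (columns, 1 mouse each), from blue (lower) to red (higher) and held at 1 either way. DMSO+AB replicates 2 and 3 are the bluest columns, with medians over the 10 genes of -0.37 and -0.42, and DMSO+AB replicate 1, at -0.11, is close to the Hispidulin+AB columns.

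The DMSO+AB mice were unequal. Centred on each gene's mean over 12 libraries, the median over the 10 genes was -0.11, -0.37 and -0.42 in DMSO+AB and -0.05, -0.07 and -0.14 in Hispidulin+AB. DMSO+AB replicate 2 held the lowest of the 12 values in 5 of the 10 genes and replicate 3 in 4. DMSO+Sham replicate 3 held the highest in 6, and its Actc1, a cardiac actin, was 2741 against 7909 to 11562 in the other mice. Without it 5 of the 10 genes passed between DMSO+AB and DMSO+Sham, with a median of -0.56, and 494 of all genes passed (4.24%). Nppa, which encodes atrial natriuretic peptide and rises in overloaded ventricles, was 680.2, 6043 and 5738 in the same DMSO+AB mice and 666 to 1047 in Hispidulin+AB. The DMSO+AB mouse with the highest median over the breakdown genes had the lowest Nppa of its group, and Myl7 was high in replicate 2 alone. The part of either in the results was not tested.

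The same comparison was made under hispidulin. Between Hispidulin+AB and Hispidulin+Sham the log2 fold change was below 0 for 10 of 10 genes, as for 54.9% of all genes. It ran from -0.30 for Aldh6a1 to -0.13 for Bckdk with a median of -0.24, against a median of -0.02 over all genes tested. None passed (adjusted p from 0.644 to 0.919), where 0% of all genes tested were called in limma. Ivd had an unadjusted p under 0.05, as did 847 of all genes or 7.26%. In 5 of the 10 the groups did not overlap, which held for 11.8% of all genes in that direction. For Aldh6a1 the 95% interval ran from -0.64 to 0.03, and for Ivd it ran from -0.53 to -0.03. With the replicate number as a block, 17 of all genes were called in this comparison and 0 of the 10.

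Between Hispidulin+AB and DMSO+AB, the comparison that addresses the drug in overloaded hearts, 9 of 10 genes were above 0, as were 51.4% of all genes, and Bckdk was at -0.06. The largest difference was 0.37 for Aldh6a1 (95% interval 0.03 to 0.71) and the median was 0.22, against 0.00472 over all genes tested. None passed (adjusted p = 0.996 for each in limma), where 0% of all genes were called. The study, which names no test for its FPKM fold changes, did report genes as different between these groups. It listed Aldh6a1 among those raised by hispidulin in hypertrophy. Aldh6a1 and Bckdhb, at 0.33 (interval 0.00185 to 0.67), had an unadjusted p under 0.05, as did 362 of all genes or 3.1%. Pccb was the single gene of the 10 whose groups did not overlap (4.23% of all genes in that direction), with 64.37 to 69.0 in Hispidulin+AB and 56.1 to 64.35 in DMSO+AB. This comparison shares the DMSO+AB mice with the banding comparison above. Without DMSO+AB replicate 1 the median was 0.34 and 0 of 10 passed, where 20 of all genes or 0.171% were called. Without DMSO+AB replicate 3 it was 0.15, with 0 of 10 and 0 of all genes called.

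The interaction, which tests directly whether banding acted differently with the drug, was called for 0 of the 10 and for 0% of all genes tested. The unadjusted p was under 0.05 for 4 of the 10, as for 289 of all genes or 2.48%. These were Bckdhb with 0.59 (standard error 0.22), Aldh6a1 with 0.59 (standard error 0.22), Ivd with 0.42 (standard error 0.16) and Mccc1 with 0.41 (standard error 0.16) on the log2 scale, with an adjusted p of 0.9995 each. In Ppm1k the interaction was 0.72, with an adjusted p of 0.9995 too. In sham hearts the 10 genes differed by -0.28 to -0.03 between Hispidulin+Sham and DMSO+Sham, 10 of 10 below 0, as were 52.3% of all genes. Of the 10, 0 were called, where 0% of all genes were called, and 0 had an unadjusted p under 0.05, where 2.46% of all genes had one. Ivd and Mccc1 did not overlap there, a pattern found in 2.83% of all genes. With the replicate number as a block, 0 of the 10 and 0 of all genes passed in limma in this comparison (310 of all genes at an unadjusted p under 0.05).

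The numbers in the sample descriptions fall in the 5000s and the 6000s, and DMSO+Sham replicate 1 stands outside both. Nothing says what the numbers or their series are. Within the 5000s the median difference of the 10 genes between DMSO+AB and DMSO+Sham was -0.60 (1 mouse against 1) and within the 6000s it was -0.55 (2 against 1). Between Hispidulin+AB and DMSO+AB the medians were 0.24 and 0.20 (1 against 1 and 2 against 2). Between Hispidulin+AB and Hispidulin+Sham they were -0.26 and -0.16, and between Hispidulin+Sham and DMSO+Sham -0.05 and -0.36. With the series as a covariate, which takes DMSO+Sham replicate 1 out of the estimate, Bckdhb, Ivd and Aldh6a1 passed between DMSO+AB and DMSO+Sham, as did 142 of all genes (1.22%).

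Genes other than the 10, the rest of the pathway included, were searched for levels that ran closest to the median of the 10 over the 12 libraries. The measure was the root mean square distance of centred log2(FPKM + 1). Among the nearest that were not members were Eci1, Acadvl, Hadhb, Cacfd1, Ldhb, Hadha, Nnt, Dhrs11 and Suclg2, with distances from 0.0603 to 0.0830. All of these were lower in DMSO+AB than in DMSO+Sham, with log2 fold changes from -0.58 (Cacfd1) to -0.42 (Acadvl). Their adjusted p ran from 0.0111 to 0.0464 in limma. Nearness to a profile that fell favours such a fall, and a called fall was not particular to the 10 genes. Eci1, Acadvl, Hadhb and Hadha encode enzymes of mitochondrial fatty acid oxidation. Among the 10 genes themselves Pcca was nearest, at rank 2 of all genes tested, and Mccc1, Pccb and Ivd stood at ranks 9, 14 and 33. Bckdk at rank 2869 and Dbt at rank 4619 were farthest. The 10 genes define the median profile themselves, which favours low ranks for them, and the distances are descriptions over 12 libraries that share the same groups.

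The labelled tissue showed in its genes, since Myl2, the ventricular myosin light chain, was 11178 to 16920 in each mouse. The 8 listed cardiomyocyte markers, several of which atrial muscle expresses too, summed to 48179 to 68009 in DMSO+Sham and 58517 to 63178 in DMSO+AB, and 1 of 8 was called, Ryr2, lower by 0.59. The 8 fibroblast markers summed to 346 to 448 in DMSO+Sham and 406 to 987 in DMSO+AB, with 3 of 8 called higher. Of the listed endothelial, macrophage, smooth muscle and blood markers 0 were called. The 3 measured atrial markers summed to 14.8 to 39.99 and 3.06 to 172, also with 0 called. Fat cell markers summed to 22.8 to 29.4 and 28.2 to 32.9, with most of each sum from Cidea alone (22.0 to 31.8), Ucp1 at 0 to 0.05 and Adipoq at 0 to 0.40. In bulk tissue, fewer cells of a type and less RNA per cell cannot be told apart, and the part of the fibroblast markers in the fall of the breakdown genes was not tested. Of the 4 genes listed as a check of overload, 3 passed in the vehicle groups, where Nppa rose by 4.54 (adjusted p = 0.0121), Nppb by 3.08 (adjusted p = 0.0036) and Acta1 by 4.12 (adjusted p = 0.0032) on the log2 scale. The remaining gene, Myh7, was 35.2 to 185 in DMSO+Sham and 95.9 to 545 in DMSO+AB, and its difference of 1.55 did not pass (adjusted p = 0.182).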

How the data were processed

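Libraries of polyadenylated RNA from left ventricle were read as single-end reads of 50 bases. The authors deposited FPKM for 18079 genes in 12 libraries, rounded to 0.01. The submitters' processing notes name HISAT2 2.0.4, Bowtie2 2.2.5, RSEM 1.2.12 and DESeq2 1.4.5, and the genome build is not given in the sources used here. Gene identifiers were paired with symbols by the RefSeq gene table (17947 matched). Depth is unknown. Values of low genes were divided by the gene's lowest value over the 12 libraries, and between 17.0% and 20.2% of these ratios lay within 0.1 of a whole number. Evenly spread ratios would give about as many, and libraries may be scaled differently, so this check could not recover reads. No counting error is given.

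FPKM were used as log2(FPKM + 1) in R 4.3.3 with limma 3.58.1, with 1 mean per group, 8 error degrees of freedom and moderated variances that follow the mean. Tests were two-sided, and p-values were adjusted over 11664 genes by the method of Benjamini and Hochberg. A fold change on this scale understates the change of low genes. Fits were tested on simulated data. Ratios, promoters and figures were made with Python 3.11.15. Whether replicates differ in more than the mouse is not stated, so p-values measure the spread between these mice.

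The 10 genes, the pathway list, the markers and the comparisons were chosen with earlier results of these data known. Named were all 10, listed pathway genes that passed anywhere, Ppm1k, Dld, Mccc2, Klf15 and Slc25a44 in any case, the 10 nearest genes by profile (1 of them is not reported here), marker genes and overload genes. Bcat1 was named for being below the filter, and Esrra, Ppara and Ppargc1a, outside this rule, after their values were seen.

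Replicate numbers belong to different animals. Correlations of deviations of same-numbered libraries were 0.147, 0.197 and 0.228 between Hispidulin+AB and Hispidulin+Sham and 0.126, 0.330 and 0.232 between Hispidulin+Sham and DMSO+Sham, each over 0.1, so the replicate block is given for these. They were below 0 for DMSO+AB and DMSO+Sham, and of mixed sign for Hispidulin+AB and DMSO+AB. Alternatives were quantile normalization, scaling by the median of ratios, weights per library, no trend, 0.1 added before the logarithm, and a filter at 5 or none. Further ones were the replicate block, the series of description numbers, the compared libraries alone and each replicate left out. The last was a strict rule (adjusted p up to 0.001 and a log2 change of 1 or more either way).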

Additional observations from a re-analysis of the deposited data

How the results depend on the processing

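Between DMSO+AB and DMSO+Sham all 10 changes were below 0 in every one of 17 alternative fits, with medians from -0.68 to -0.52. How many passed was less stable. From 6, the count of the 10 genes became 0 with only the libraries compared and 3 with the series of description numbers. It became 0 without the 3 libraries with Myl7 above 20 (added after seeing the data), 0 by the strict rule, and 1 to 8 with a replicate left out. The lowest counts came without DMSO+AB replicate 2 (1) and DMSO+Sham replicate 1 (2). Averaged over treatments, 7 became 0 without the Myl7 libraries, 0 by the strict rule, and 4 to 8 with a replicate left out, lowest without Hispidulin+Sham replicate 2. In the other 4 comparisons 0 of the 10 passed in each alternative.

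Over all genes tested, 608 calls between DMSO+AB and DMSO+Sham became 358 without a filter, 1423 with library weights and 11 with only the libraries compared. They became 142 with the series of description numbers, 20 without the Myl7 libraries, 0 by the strict rule, and 91 to 1053 with a replicate left out. Averaged over treatments, 862 became 2535 with library weights, 547 with the series, 74 without the Myl7 libraries, 9 by the strict rule, and 376 to 1220 with a replicate left out. With median-of-ratios scaling, 458 were higher and 335 lower there, against 411 and 451, and 342 were higher and 253 lower between DMSO+AB and DMSO+Sham, against 292 and 316. Between Hispidulin+AB and Hispidulin+Sham 0 became 2 without a filter, 2 with median-of-ratios scaling, 3 with quantile normalization, 209 with library weights, 49 with only the libraries compared, 17 with the replicate block, and 0 to 3 with a replicate left out. Between Hispidulin+AB and DMSO+AB 0 became 2 without a filter and 0 to 20 with a replicate left out, and the interaction 0 to 3. The replicate block changed no other call by more than 1.5 times. Calls here are by limma.

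Signs turned for a few changes that had not passed. For Bckdk they became 0.00133 between Hispidulin+AB and DMSO+AB and 0.0300 in the interaction with library weights, and 0.0218 between Hispidulin+Sham and DMSO+Sham without the Myl7 libraries, where Bckdha became 0.00942 from -0.13. With a replicate left out the ranges were -0.13 to 0.0605 and -0.0190 to 0.17 for Bckdk and Bcat2 between Hispidulin+AB and DMSO+AB, -0.21 to 0.00942, -0.0680 to 0.0218 and -0.11 to 0.0253 for Bckdha, Bckdk and Pcca between Hispidulin+Sham and DMSO+Sham, and -0.10 to 0.0885 for Bckdk in the interaction. The log2 ratio of Bckdk to Ppm1k was 1.17 within DMSO mice and 0.35 within hispidulin mice, and lay between 0.58 and 0.87 over the fits that omit 1 mouse, and the ratio of Mccc1 to Mccc2 ran from -0.0293 to 0.0957 with a replicate left out. Fits with fewer libraries have fewer error degrees of freedom, and beyond that the cause was not tested. The depth behind each FPKM value is unknown, and 3 mice a group limit the precision.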
